A study of Mus musculus with 33 samples.

Results

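The genes described here are 46 that code for synaptic and neuronal adhesion molecules, chosen by name from 13 families: NCAM, neurexins, neuroligins, LRRTM, LRFN/SALM, AMIGO, CNTNAP, contactins, cadherins, delta and other non-clustered protocadherins, FLRT, SLITRK and SynCAM. The choice was made with earlier results of these data known. All 46 were found among the 38355 genes of the count files and among the loci of the FPKM files, and all 46 passed the filters on low values in both experiments. Their level was compared in the CA1 field of the hippocampus after injection of JQ1, a small molecule that occupies the bromodomains with which BET proteins read acetylated histones. In aged mice (8 to 10 months), counts were at hand for 12 APP mice, of which 6 had received JQ1 and 6 vehicle, and for 4 WT mice on vehicle. The JQ1 dose was 50 mg per kg, given intraperitoneally for 10 days. In young WT mice (3 months, strain C57B/6JRj), FPKM were at hand for 8 mice on JQ1 and 8 on vehicle, after 13 days at the same dose. The vehicle was 10% DMSO in both experiments. No group of aged WT mice on JQ1 is among the samples analysed here. APP mice are a transgenic line on a C57B/6 background, in which the neuronal Thy1 promoter drives human APP with disease mutations. Vehicle-treated aged WT replicate 2 is listed in the labels but was not analysed here. For aged WT mice the strain label gives the APP line, and the titles, which say WT, were followed. The methods give males for the young mice and females for the APP experiment, and all mice had been trained in the water maze before death.

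Synaptic adhesion molecules are membrane proteins that join the presynaptic to the postsynaptic side and help to decide which synapses form and with which receptors. Neurexins sit on the presynaptic membrane and bind neuroligins, LRRTM proteins and others across the cleft, and SLITRK and LRFN proteins bind presynaptic receptor phosphatases. FLRT proteins bind latrophilins, SynCAM and NCAM proteins bind mainly their own kind or close relatives, and cadherins and protocadherins join like membranes through calcium-dependent contacts. Contactins are held by a lipid anchor and often act together with members of the CNTNAP family, which are large relatives of the neurexins.

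The members also differ in gene structure and in base composition. The share of G and C in the longest coding transcript ranged from 34.7% (Slitrk4) to 65.6% (Lrfn4), with a median of 45.2% against 50.1% over all 16962 genes tested in aged mice. It was 50% or more in 11 members and under 50% in 35. The median distance from start to end of a member gene was 163.5 kb against 22.0 kb for all genes tested, and 28 members were longer than 100 kb. Because the direction of the differences in aged mice followed the base composition, a stretch of coding sequence is shown for the 5 members that passed the threshold in any comparison: the middle 120 bases of the longest coding exon, with G and C in capitals (GENCODE release M21, build GRCm38, which is mm10). Ncam2 is read from exon 3 of 18 (chr16:81434824-81434943, plus strand), Nrxn2 from exon 23 of 23 (chr19:6531647-6531766, plus strand), Lrfn4 from exon 1 of 2 (chr19:4613771-4613890, minus strand), Amigo3 from its 1 exon (chr9:108054082-108054201, plus strand) and Slitrk3 from exon 2 of 2 (chr3:73049908-73050027, minus strand).
Ncam2: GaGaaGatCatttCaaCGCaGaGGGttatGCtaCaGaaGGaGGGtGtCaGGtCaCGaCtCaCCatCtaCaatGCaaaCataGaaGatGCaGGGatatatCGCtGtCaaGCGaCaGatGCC
Nrxn2: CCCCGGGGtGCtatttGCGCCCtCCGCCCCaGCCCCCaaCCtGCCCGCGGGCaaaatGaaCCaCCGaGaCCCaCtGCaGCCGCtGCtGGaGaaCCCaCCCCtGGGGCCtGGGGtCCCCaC
Lrfn4: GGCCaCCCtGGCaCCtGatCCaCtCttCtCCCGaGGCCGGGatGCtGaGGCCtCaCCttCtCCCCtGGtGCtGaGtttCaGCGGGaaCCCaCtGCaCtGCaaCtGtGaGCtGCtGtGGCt
Amigo3: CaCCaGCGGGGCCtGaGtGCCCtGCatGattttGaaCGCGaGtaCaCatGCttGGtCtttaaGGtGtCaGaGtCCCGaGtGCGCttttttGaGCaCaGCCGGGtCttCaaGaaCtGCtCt
Slitrk3: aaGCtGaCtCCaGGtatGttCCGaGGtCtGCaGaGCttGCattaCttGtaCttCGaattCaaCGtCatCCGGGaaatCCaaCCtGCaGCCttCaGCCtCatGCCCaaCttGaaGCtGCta
G and C made up 47.5% of the Ncam2 stretch, 71.7% of the Nrxn2 stretch, 63.3% of the Lrfn4 stretch, 54.2% of the Amigo3 stretch and 50.0% of the Slitrk3 stretch. Over the whole transcript the shares were 38.2%, 62.4%, 65.6%, 56.8% and 47.2%, in the same order.

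Over the members with a listed start site, promoter GC content went only in part with that of the transcript (Pearson's r = 0.33, as a description). It hardly went with the log2 fold change after JQ1 in APP mice. The 250 bases before the annotated start are shown for Ncam2, which was higher after JQ1 in APP mice, and for Lrfn4, which was lower, with each CG pair in capitals (RefSeq, GRCm38.p6; chr16:81200447-81200696, plus strand, and chr19:4615668-4615917, minus strand).
Ncam2: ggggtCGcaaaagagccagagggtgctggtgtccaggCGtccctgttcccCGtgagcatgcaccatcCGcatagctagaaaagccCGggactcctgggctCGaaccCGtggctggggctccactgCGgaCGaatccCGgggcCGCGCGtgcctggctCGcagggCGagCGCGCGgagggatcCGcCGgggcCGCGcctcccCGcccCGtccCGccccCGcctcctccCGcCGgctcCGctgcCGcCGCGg
Lrfn4: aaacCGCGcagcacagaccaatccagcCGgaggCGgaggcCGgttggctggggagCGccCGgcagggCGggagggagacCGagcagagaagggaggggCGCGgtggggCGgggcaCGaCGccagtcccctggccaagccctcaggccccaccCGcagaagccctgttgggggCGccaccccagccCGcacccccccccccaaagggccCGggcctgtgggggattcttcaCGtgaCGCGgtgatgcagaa
The Ncam2 stretch held 32 CG pairs and the Lrfn4 stretch 21, and as many or more were found in 4.58% and 16.4% of the 32851 promoters of the table, whose median was 6. The promoter of Amigo3, which was also lower, held 3 CG pairs, and 71.0% of promoters held as many or more. Start sites were listed for 33 of the 46 members. Their 44 promoters held between 0 and 38 CG pairs, with a median of 9. Across the 33 members, with the first promoter of each, the correlation of promoter GC content with the log2 fold change after JQ1 in APP mice was 0.04 (Pearson's r, as a description).

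Before the results, 1 library has to be set apart. APP mice carry transgenes, so their App reads and reads from the Thy1 cassette should exceed those of WT mice, and plaque-associated genes such as Cst7, a protease inhibitor of activated microglia, should be present. In the library labelled JQ1-treated APP replicate 4, App was 1781 CPM (counts of a gene scaled to the same total of reads on genes in each library) and Thy1 820 CPM, and Cst7 had no read. In the other 5 JQ1-treated APP libraries App ranged from 2070 to 2496 CPM, Thy1 from 1618 to 2070 CPM and Cst7 from 14.2 to 38.2 CPM, and the 6 vehicle-treated APP libraries lay in similar ranges. In the 4 WT libraries App ranged from 1853 to 1992 CPM, Thy1 from 841 to 1070 CPM and Cst7 from 0 to 0.245 CPM. The library labelled JQ1-treated APP replicate 4 thus goes against its label, and the main calls and leading log2 differences are given with and without it. Other values include it, among them the counts of members without overlap and the exact permutation p. The correlations between members and the fit with reads outside exons include it too. Another library, WT replicate 4, had a summed level of 5 choroid plexus markers of 3178 CPM, against 23.7 to 143 CPM in the other aged libraries, and WT replicate 1 had the highest sum of 7 CA2 and CA3 markers (559 CPM against 304 to 404 CPM). CA1 pyramidal markers were present in every library, their sum ranging from 5343 to 8464 CPM over 8 genes. Reads on genes numbered between 14605459 and 25339482 per aged library, so that 3 reads corresponded to at most 0.205 CPM before the TMM scaling. The depth of the FPKM libraries is unknown.

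The levels of the members spanned a wide range. FPKM, which is scaled by transcript length, allows genes to be compared within a library, and in vehicle-treated young mice the highest members were Cadm1 (88.8 ± 8.59 FPKM, SD, n = 8), a SynCAM, Cntn1 (86.7 ± 5.75), a contactin, and Nlgn2 (82.5 ± 7.41), the neuroligin of inhibitory synapses. These 3 overlapped in their spread. The lowest was Cntn5 (1.90 ± 0.324 FPKM). Of the neurexins, Nrxn2 was at 58.8 ± 12.6 FPKM and Nrxn3 at 36.4 ± 4.32 FPKM, and of the NCAM genes Ncam1 was at 57.5 ± 3.36 and Ncam2 at 15.8 ± 2.43 FPKM. Within other families, Lrrtm1 led the LRRTM genes (28.9 ± 2.53 FPKM), Lrfn5 the LRFN genes (23.9 ± 1.58), Cntnap2 the CNTNAP genes (36.1 ± 3.80), Cdh2 the cadherins (28.6 ± 2.001), Pcdh9 the protocadherins (26.2 ± 2.87), Flrt2 the FLRT genes (10.9 ± 1.07) and Slitrk1 the SLITRK genes (22.6 ± 0.902).

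**Figure D1:**
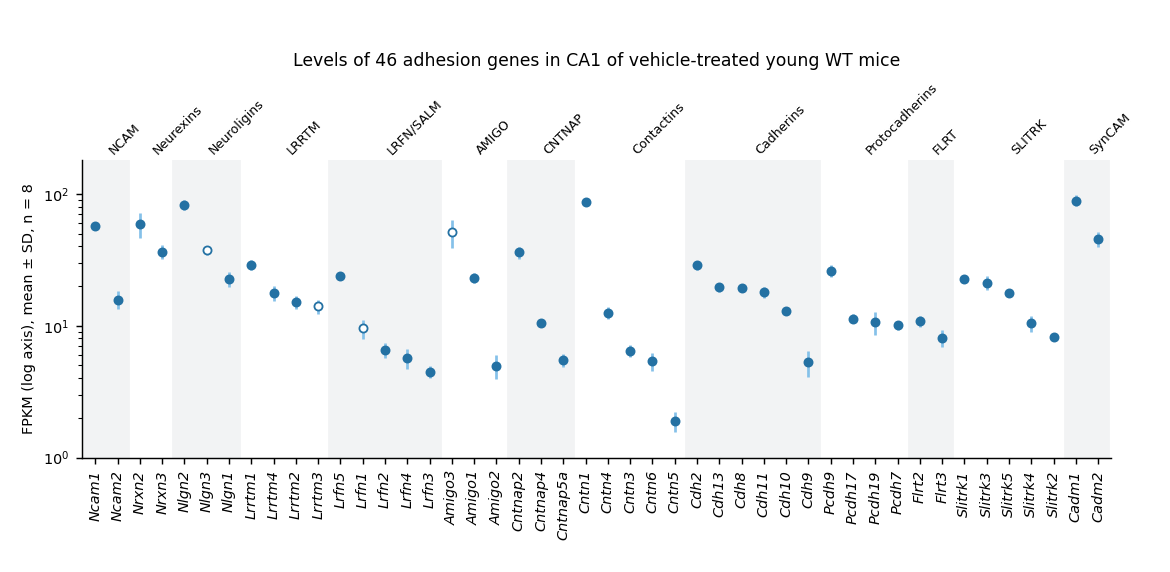
Mean FPKM ± SD on a log axis of the 46 members in 8 vehicle-treated young WT mice, by family and in falling order within each; open points are 4 loci that the FPKM table joins with neighbouring genes. Cadm1, Cntn1 and Nlgn2 lie highest, at 82.5 to 88.8 FPKM, and Cntn5 lowest, at 1.90 FPKM.

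For 4 members the FPKM locus is joined with neighbours (Nlgn3 with Med12 and Gm21986, Lrrtm3 with Gm10118, Lrfn1 with Samd4b, Amigo3 with Gmppb and Gm20529), and their FPKM cannot be told apart from those neighbours. Amigo3 ranked 6 of 46 in FPKM (51.1 ± 12.1), but 41 of 46 in aged WT mice when counts were divided by exonic length (2.32 ± 0.222 CPM per kb, n = 4). The 2 ranks also differ in age, sex and unit, and the part of the joined locus was not tested. In the same aged WT mice Nlgn2 (49.9 ± 5.87 CPM per kb), Cntn1 (44.9 ± 7.10) and Lrrtm1 (41.6 ± 3.75) were the highest members and Cntnap5a the lowest (0.594 ± 0.226). Ncam1, Lrrtm1, Cntnap2 and Flrt2 again led their families there. The leader differed in the neurexins (Nrxn3, 17.7 CPM per kb), LRFN genes (Lrfn2, 9.27) and cadherins (Cdh11, 9.73). It also differed in the protocadherins (Pcdh19, 7.90), SLITRK genes (Slitrk3, 21.7) and SynCAM genes (Cadm2, 24.8). Counts and FPKM were made in different ways, so the 2 orders were set side by side and not tested.

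JQ1 against vehicle in APP mice addressed how the drug acts on transcription in the diseased hippocampus. 4 of the 46 members passed the threshold (adjusted p under 0.05, quasi-likelihood test of edgeR, adjusted over all genes by the Benjamini-Hochberg method), where 1.08% of all genes tested did so. 3 members fell and 1 rose, against 0.466% and 0.619% of all genes. Since the members were chosen with earlier results of these data known, these shares are a description and no test of enrichment. The presynaptic receptor gene Nrxn2 fell, as did the leucine-rich repeat genes Lrfn4 (SALM3), which binds presynaptic receptor phosphatases, and Amigo3, whose family promotes neurite outgrowth. Ncam2, a homophilic adhesion molecule of the immunoglobulin superfamily, rose. Without the library labelled JQ1-treated APP replicate 4, none of the 46 passed by edgeR (0.431% of all genes did), whereas the same 4 passed by DESeq2, which called 2.73% of the genes it tested, and their directions were kept. With all libraries, DESeq2 called 7 members (these 4, Lrfn1, Lrrtm2 and Pcdh7), where it called 5.33% of all genes. The edgeR count also depended on other libraries: it was 1 without JQ1-treated APP replicate 2 (0.384% of all genes), 2 without JQ1-treated APP replicate 3 (0.449%) or without vehicle-treated APP replicate 3, 4, 5 or 6 (0.461 to 0.711%), and 6 without vehicle-treated APP replicate 2 (1.97%).

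Ncam2 was between 19.98 and 39.7 CPM in the 6 JQ1-treated APP mice (median 34.3) and between 8.77 and 24.0 CPM in the 6 vehicle-treated APP mice (median 16.4). The groups overlapped in 1 JQ1-treated mouse, replicate 6, which was below the highest vehicle-treated mouse. The difference was 1.004 ± 0.23 on the log2 scale (SE), a fold of 2.01, with an adjusted p of 0.0394 (edgeR) and an exact permutation p of 0.00433 (two-sided). Without the library that goes against its label the adjusted p was 0.0940 (edgeR) and the difference 0.99. The call is sensitive to single libraries, since Ncam2 passed in 6 of the 16 fits that left out 1 library each, with adjusted p from 0.0122 to 0.0997.

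Nrxn2 was between 172 and 234 CPM in JQ1-treated APP mice (median 199) and between 248 and 284 CPM in vehicle-treated APP mice (median 264). No JQ1-treated mouse reached the lowest vehicle-treated mouse. The log2 difference was -0.40 ± 0.08 (edgeR adjusted p = 0.0181), and without the library labelled replicate 4 it was -0.38 with an adjusted p of 0.0565. On the other strand, exons of Gm14964 and Slc22a12 overlap exons of Nrxn2, and whether the counting used strand is not given in the sources used here.

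Lrfn4 was between 19.1 and 30.8 CPM in JQ1-treated APP mice (median 26.3) and between 36.4 and 43.4 CPM in vehicle-treated APP mice (median 38.0). The groups were fully apart. The log2 difference was -0.59 ± 0.12 (edgeR adjusted p = 0.0178) and, without the library that goes against its label, -0.56 (adjusted p = 0.0539). Amigo3 was the least abundant of the members that passed: it was between 2.71 and 5.20 CPM after JQ1 (median 3.62) and between 5.28 and 8.30 CPM after vehicle (median 6.41). Here too the groups did not overlap, though their edges nearly met. The log2 difference was -0.83 ± 0.18 (edgeR adjusted p = 0.0320) and -0.76 without that library (adjusted p = 0.0853). Nrxn2, Lrfn4 and Amigo3 each had the smallest exact permutation p that 6 against 6 mice allow, 0.00216 (two-sided).

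**Figure D2:**
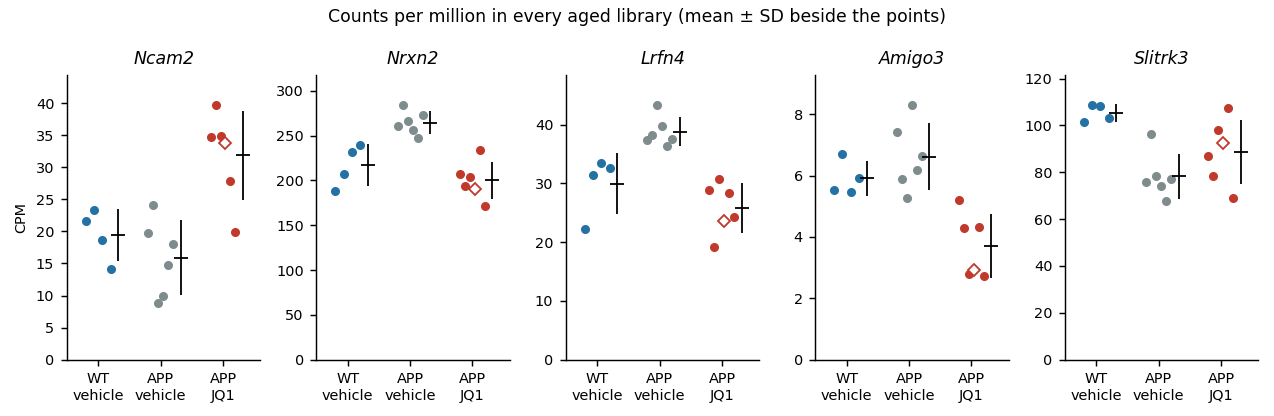
CPM of the 5 members that passed the threshold in any comparison, 1 point per aged mouse, with the mean ± SD of each group to its right; the open diamond is the library labelled JQ1-treated APP replicate 4. For Nrxn2, Lrfn4 and Amigo3 the JQ1-treated APP mice all lie below the vehicle-treated APP mice, Ncam2 overlaps in 1 mouse, and for Slitrk3 the WT mice all lie above the vehicle-treated APP mice.

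Lrrtm2, a postsynaptic partner of neurexins, was the only other member without overlap. It was between 61.7 and 86.8 CPM in JQ1-treated and between 45.8 and 61.6 CPM in vehicle-treated APP mice, so that the groups nearly touched. Its log2 difference of 0.31 ± 0.09 did not pass (edgeR adjusted p = 0.107), and without the library that goes against its label it was 0.24 (adjusted p = 0.232). In all, 4 members did not overlap between these groups (3 lower, 1 higher), and 2.02% of all genes tested did not (1.14% lower, 0.878% higher). Exons of Lrrtm2 overlap exons of Ctnna1 on the other strand.

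Among the listed members, several families leaned to one side. The counts do not cover whole families. Of relatives outside the 46, the paper's list of genes changed by JQ1 in APP mice has Cntnap1 and Cadm4 as lower and Cntnap5b as higher. The protocadherins (4 of 4), contactins (5 of 5), SLITRK (5 of 5), CNTNAP (3 of 3), FLRT (2 of 2) and SynCAM genes (2 of 2) all had positive log2 differences, and none of these 21 genes passed. The largest of them was in Pcdh7 (0.86 ± 0.25, edgeR adjusted p = 0.0964), a protocadherin, followed by Cntnap5a (0.74 ± 0.25, adjusted p = 0.148), Slitrk4 (0.47 ± 0.19, adjusted p = 0.204), Pcdh19 (0.40 ± 0.17, adjusted p = 0.221) and Cntn4 (0.40 ± 0.14, adjusted p = 0.150). Of the 6 cadherins 5 had positive values, the largest in Cdh9 (0.34 ± 0.14, adjusted p = 0.208). The LRFN genes went the other way in 4 of 5: next to Lrfn4, Lrfn1 had -0.40 ± 0.12 (adjusted p = 0.0988), Lrfn2 -0.30 ± 0.10 (0.116) and Lrfn3 -0.25 ± 0.11 (0.257), while Lrfn5 had 0.22 ± 0.08 (0.166). Neuroligins were split, with Nlgn1 at 0.22 ± 0.15 and Nlgn2 at -0.26 ± 0.09 (adjusted p = 0.467 and 0.151). Over the 46 members the median log2 difference was 0.20, against 0.00 over all genes tested, and 34 values were positive. Related genes outside the 46, described below, did not share this lean. The median was -0.07 for 43 other neuronal adhesion genes, -0.03 for 26 partners across the cleft and 0.02 for 22 intracellular partners. At an unadjusted p under 0.05 there were 25 members (18 positive and 7 negative), and 17.6% of all genes tested. Without the library labelled JQ1-treated APP replicate 4 the log2 difference was 0.77 for Pcdh7, 0.73 for Cntnap5a, 0.37 for Slitrk4, 0.37 for Pcdh19 and 0.30 for Cntn4 (edgeR adjusted p from 0.207 to 0.404). The 21 genes were still all positive, as were 34 of the 46 members (median 0.18). An unadjusted p under 0.05 was then found for 17 members and for 2298 of the 16948 genes tested.

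**Figure D3:**
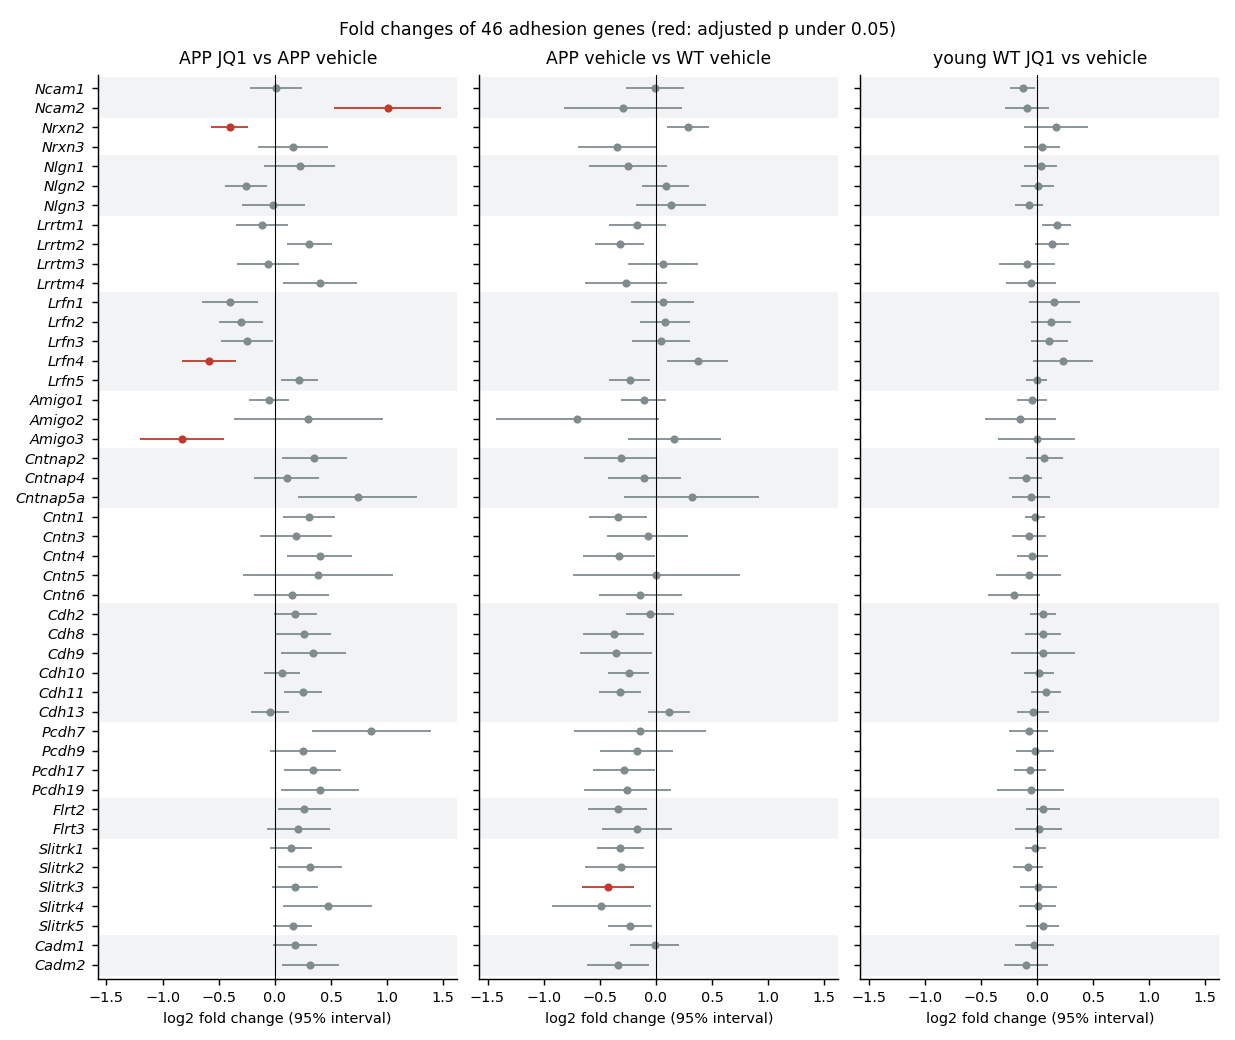
Log2 fold change with its 95% interval for the 46 members, by family (shaded bands), in 3 comparisons; red marks an adjusted p under 0.05. JQ1 in APP mice has 4 red members, APP against WT mice has 1 (Slitrk3) and JQ1 in young WT mice has none, with narrower intervals around 0.

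These directions followed base composition. Of the 35 members with a GC content under 50%, 33 had a positive log2 difference after JQ1 in APP mice (median 0.26), and of the 11 members with 50% or more, 10 had a negative one (median -0.26). Without the library that goes against its label the counts were again 33 of 35 (median 0.21) and 10 of 11 (median -0.24). The 1 exception among the latter was Slitrk5, at 50.2%, and the 2 exceptions among the former were Lrrtm3 and Nlgn3. The same held, less strongly, over all genes tested: 74.2% of those under 50% were positive (median 0.11) and 26.2% of those at 50% or more (median -0.12). Across the 46 members, the correlation of GC content with the log2 difference was -0.79 (Pearson's r, as a description across genes that share the same libraries), and that with log2 exonic length was 0.52. Without the library that goes against its label the correlation with GC content was -0.75. With an offset for GC content in each library, no member passed, where 0.153% of all genes did (the lowest adjusted p was 0.186, for Amigo3, edgeR), the median fell to 0.05, and 5 members had an unadjusted p under 0.05 where 7.75% of all genes had. With the offset and without the library labelled JQ1-treated APP replicate 4, the median was -0.002 and 22 of the 46 values were positive. Again 5 members had an unadjusted p under 0.05, where 1072 of the 16948 genes tested had. Under the offset with all libraries the log2 difference was 0.72 for Ncam2, -0.67 for Amigo3, -0.21 for Lrfn4 and -0.09 for Nrxn2, so that of these 4 genes Nrxn2 lost the largest share of its difference. Without that library the 4 values were 0.73, -0.64, -0.24 and -0.12. The offset takes away any difference that goes along with GC content, whatever its source, and the cause was not tested.

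**Figure D4:**
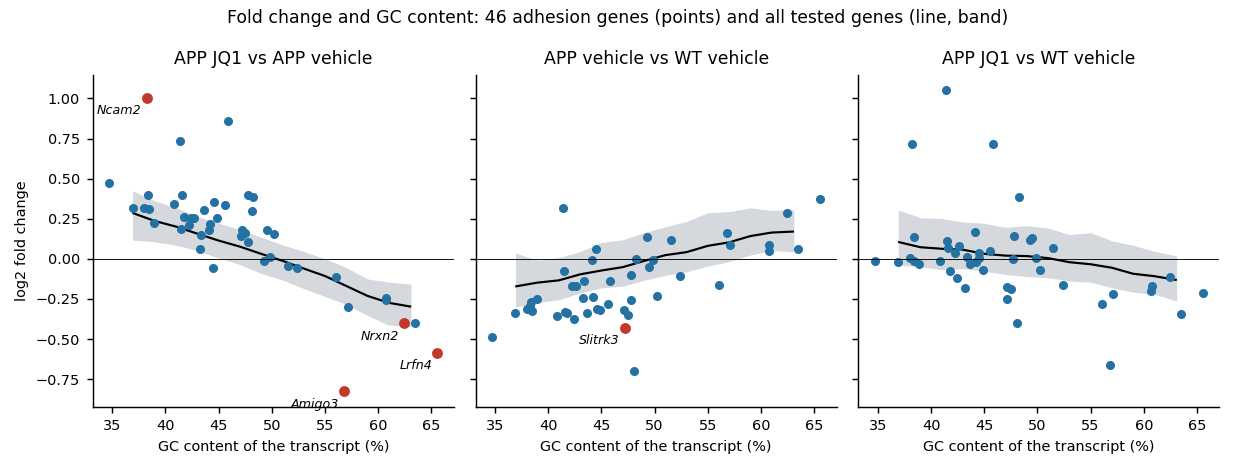
Log2 fold change against the GC content of the transcript, in percent, for the 46 members (points; red, adjusted p under 0.05) with the median (line) and the middle 50% (band) of all genes tested in bins of 2 percentage points, in the 3 comparisons of aged mice. The members follow the falling line for JQ1 in APP mice, lie mostly below the rising line for APP against WT mice, and Ncam2 and Amigo3 stand off the line.

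The same dependence could be read in single libraries. For each aged library the log2 CPM of every gene was set against its mean over the 16 libraries, and this deviation was correlated with GC content over all genes tested. Spearman's rho ranged from -0.439 to 0.0268 in the JQ1-treated APP libraries, from 0.134 to 0.464 in the vehicle-treated APP libraries and from -0.38 to 0.198 in the WT libraries, WT replicate 1 being the lowest of them. In the 2 APP groups these ranges did not overlap. The median deviation of the 35 members with low GC content was highest in the library labelled JQ1-treated APP replicate 4 (0.34), followed by WT replicate 1 (0.24) and JQ1-treated APP replicate 3 (0.23), and lowest in vehicle-treated APP replicate 3 (-0.28). The share of uniquely placed reads outside exons was 16.9 to 26.9% in JQ1-treated APP, 15.4 to 24.5% in vehicle-treated APP and 16.3 to 18.9% in WT libraries. With this share as a covariate 5 members passed, the 4 above and Nlgn2 (log2 difference -0.31, edgeR adjusted p = 0.0480), and 3.05% of all genes did.

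**Figure D5:**
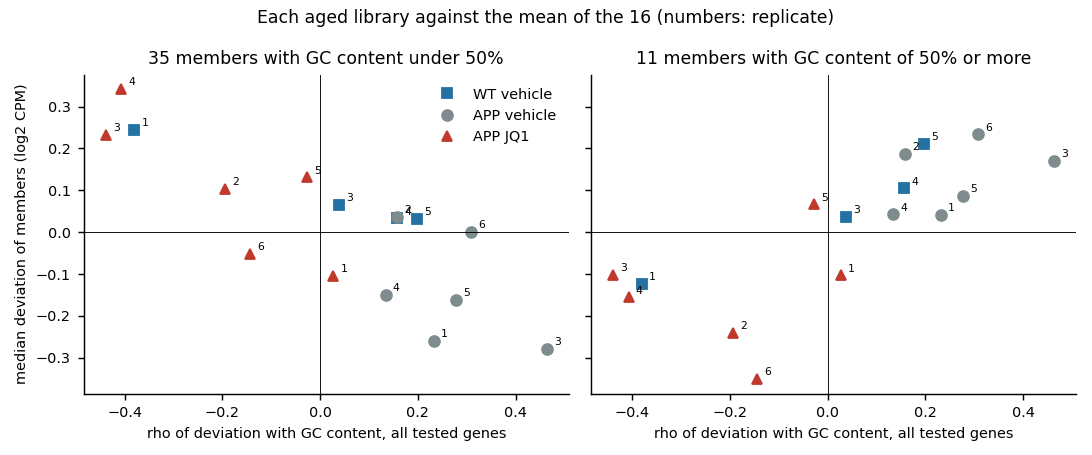
Each of the 16 aged libraries, with Spearman's rho between its deviation in log2 CPM and GC content over all genes tested (horizontal) and the median deviation of the members (vertical, log2 CPM), for 35 members with low and 11 with high GC content. Low-GC members are mostly high where rho is negative (JQ1-treated APP replicate 6 is an exception) and high-GC members are mostly low there, the JQ1-treated APP libraries lying to the left of all vehicle-treated APP libraries.

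Vehicle-treated APP against WT mice addressed the effect of the transgenes. Slitrk3, a postsynaptic organiser of inhibitory synapses, was the 1 member of 46 that passed, and it was lower in APP mice, where 2.57% of all genes tested passed and 0.0825% were lower. It was 101, 109, 108 and 103 CPM in the 4 WT mice and between 67.9 and 96.4 CPM in the 6 vehicle-treated APP mice (median 76.4). Every WT mouse was above every vehicle-treated APP mouse. The log2 difference was -0.43 ± 0.11 (edgeR adjusted p = 0.0414), and under the GC content offset it was -0.45 (adjusted p = 0.0370). Without the library labelled JQ1-treated APP replicate 4 the adjusted p was 0.0345, where 3.55% of all genes passed. Slitrk3 passed in 7 of the 16 fits without 1 library, but in none that left out a WT mouse or vehicle-treated APP replicate 1, 3, 4, 5 or 6. JQ1-treated APP mice, at 69.2 to 107 CPM, overlapped both groups.

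Beyond Slitrk3 the members of this comparison were mostly low in APP mice without passing. The median log2 difference was -0.20 against 0.01 over all genes, and 34 of 46 were negative. At an unadjusted p under 0.05 there were 18 members, 16 of them lower, and 14.4% of all genes. Without WT replicate 1 there were 12 members and 1698 of the 17330 genes tested, and the median was -0.17. Of the 35 members with low GC content 31 were negative, and of the 11 with high GC content 8 were positive. Over all genes, 36.0% of those under 50% and 66.8% of those at 50% or more were positive. The correlation of GC content with the log2 difference was 0.63 across members (Pearson's r, as a description). With the GC content offset 39 were negative, with a median of -0.18 against -0.07 over all genes, and 15 members had an unadjusted p under 0.05, where 17.1% of all genes had. All 5 SLITRK genes were negative, and Slitrk1 and Slitrk5 also did not overlap between the groups. Slitrk1 was 106, 99.5, 92.5 and 99.1 CPM in WT mice and 66.4 to 90.8 CPM in APP mice (log2 difference -0.32 ± 0.10, edgeR adjusted p = 0.113). Slitrk5 was 91.4, 107, 98.2 and 110 CPM in WT mice and 78.5 to 90.4 CPM in APP mice (-0.23 ± 0.09, adjusted p = 0.255). The SLITRK genes thus had a shared direction with modest sizes, between -0.23 and -0.49. The largest was that of Slitrk4, at 78.1 CPM in WT replicate 1 and 39.6, 36.8 and 40.7 CPM in the other WT mice. Leaving out 1 library at a time gave -0.62 to -0.18 for Slitrk4, and the GC content offset gave -0.24.

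Of the cadherins, which hold cell contacts together, Cdh11 was 103, 77.8, 80.9 and 84.7 CPM in WT mice and 63.9 to 74.7 CPM in vehicle-treated APP mice. Its log2 difference of -0.32 ± 0.09 did not pass (edgeR adjusted p = 0.0718), but passed with the GC content offset (adjusted p = 0.0295), when 2.13% of all genes passed, and by DESeq2 (adjusted p = 0.0195), which called 4.22% of all genes. Cdh8 was 77.3, 67.0, 64.6 and 66.1 CPM in WT mice and 44.1 to 59.2 CPM in vehicle-treated APP mice (-0.38 ± 0.13, adjusted p = 0.167). For both cadherins the groups did not overlap and WT replicate 1 was the highest mouse. The same was true of Lrrtm2, at 80.3, 72.9, 63.5 and 64.8 CPM in WT mice against 45.8 to 61.6 CPM (-0.32 ± 0.10, adjusted p = 0.131).

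2 members without overlap were higher in vehicle-treated APP mice. Nrxn2 was 188.5, 207, 232 and 240 CPM in WT mice against 248 to 284 CPM (0.29 ± 0.09, edgeR adjusted p = 0.111; 0.07 with the GC content offset). Lrfn4 was 22.3, 31.5, 33.4 and 32.7 CPM in WT mice against 36.4 to 43.4 CPM (0.37 ± 0.13, adjusted p = 0.167; 0.16 with the offset). In both genes WT replicate 1, which also had the most negative rho of the WT libraries, was the lowest. In all, 8 members did not overlap between these groups (6 lower, 2 higher), and 6.98% of all genes tested did not (2.05% lower, 4.93% higher). Each had the smallest exact permutation p that 6 against 4 mice gave, 0.00476. Amigo2, a gene strong in CA2 and CA3, was 32.5 CPM in WT replicate 1, 16.4, 12.4 and 13.1 CPM in the other WT mice and 7.07 to 16.6 CPM in vehicle-treated APP mice. Its log2 difference was -0.70 ± 0.34 (edgeR adjusted p = 0.364), and -0.30 without WT replicate 1 (adjusted p = 0.846). WT replicate 1 also had the highest sum of CA2 and CA3 markers, whose part was not tested.

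Microglial and astrocyte markers were higher in APP mice over the same contrast. The summed level of 6 microglial markers was 234 to 275 CPM in WT mice and 462 to 825 CPM in vehicle-treated APP mice. That of 6 astrocyte markers was 2165 to 2337 CPM against 3318 to 7370 CPM. Of these, 3 of the 6 and 1 of the 6 passed as higher, where 2.49% of all genes did. For 6 oligodendrocyte markers the sum was 4820 to 5694 CPM in WT mice and 4951 to 5571 CPM in vehicle-treated APP mice, with none passing. The summed level of 8 CA1 pyramidal markers was 6619 to 8464 CPM and 6254 to 7827 CPM, with none passing, and that of 6 interneuron markers 887 to 991 CPM and 727 to 935 CPM. Their part in the lower values of the members was not tested, and in bulk tissue fewer cells of a type and less RNA per cell cannot be told apart.

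JQ1-treated APP against WT mice addressed how near the treated mice came to WT. None of the 46 members passed by edgeR, where 2.06% of all genes did. At an unadjusted p under 0.05 there were 7 members and 14.1% of all genes, and by DESeq2 2 members passed (Cntnap5a and Amigo3), where 4.21% of all genes did. Without the library labelled JQ1-treated APP replicate 4, edgeR again called none of the members and 3.84% of all genes. With the GC content offset none passed and 14 members had an unadjusted p under 0.05, where 2.06% and 18.7% of all genes did. The median log2 difference was -0.02 and 21 members were positive. Without that library 14 were positive (median -0.09), with the GC content offset 8 were (median -0.14 against -0.08 over all genes), and with both 7 were (median -0.18). This comparison and both before it share samples, so the values of a member are given side by side and not related to each other. Cntnap5a, a relative of the neurexins, was 3.44, 9.29, 7.38 and 5.91 CPM in WT mice, 4.95 to 13.7 CPM in vehicle-treated APP mice and 10.97 to 16.1 CPM in JQ1-treated APP mice. The JQ1-treated mice were all above the WT mice, and the log2 difference was 1.06 ± 0.29 (edgeR adjusted p = 0.0722). Amigo3 was 5.53, 6.70, 5.48 and 5.91 CPM in WT mice, all above the JQ1-treated mice (-0.66 ± 0.20, adjusted p = 0.0960). Pcdh7 was 18.6, 18.5, 13.9 and 12.6 CPM in WT mice and 19.3 to 34.1 CPM after JQ1 (0.72 ± 0.28, adjusted p = 0.242), again without overlap. Ncam2, at 21.7, 23.3, 18.7 and 14.1 CPM in WT mice, had 0.71 ± 0.25 (adjusted p = 0.183). Without the library that goes against its label the log2 difference was 1.04 for Cntnap5a, -0.61 for Amigo3, 0.62 for Pcdh7 and 0.69 for Ncam2 (edgeR adjusted p = 0.0741, 0.117, 0.323 and 0.219). In all, 3 members did not overlap here (2 higher, 1 lower), and 3.74% of all genes did not (2.58% higher, 1.17% lower).

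JQ1 against vehicle in young WT mice addressed the effect of the drug in healthy mice. None of the 46 members passed (limma on log2(FPKM + 0.1), Benjamini-Hochberg adjustment), where 0.00543% of all loci, that is 1 of 18420, did, and no member was without overlap, where 0.0271% of all loci were. Every log2 difference lay between -0.20 (Cntn6) and 0.23 (Lrfn4), with a median of -0.01. At an unadjusted p under 0.05 there were 2 members, Lrrtm1 and Ncam1, and 4.65% of all loci. Lrrtm1, a postsynaptic partner of neurexins, had 0.18 ± 0.06 (exact permutation p = 0.0140) and Ncam1 -0.13 ± 0.05 (exact permutation p = 0.0169), both with an adjusted p of 0.981 (limma).

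The members that passed in APP mice are given here in young mice, side by side, since counts and FPKM were made and normalized separately and the difference between the experiments was not tested. Ncam2 was 11.7 to 17.1 FPKM after JQ1 (median 15.0) and 13.2 to 20.9 FPKM after vehicle (median 15.3), a log2 difference of -0.09 with a 95% interval from -0.28 to 0.10. Nrxn2 was 43.8 to 83.7 FPKM after JQ1 (median 68.6) and 42.5 to 77.1 FPKM after vehicle (median 57.6), a difference of 0.17 with an interval from -0.12 to 0.45. Lrfn4 was 4.45 to 7.85 FPKM after JQ1 (median 7.22) and 3.98 to 6.98 FPKM after vehicle (median 5.81), a difference of 0.23 with an interval from -0.03 to 0.50. The groups overlapped in each of these genes. Amigo3 could not be read, since its locus is joined with Gmppb. Here the 11 members of high GC content had 8 positive values and the 35 of low GC content 13. The rho of single young libraries with GC content ranged from -0.385 to 0.312 after JQ1 and from -0.509 to 0.275 after vehicle, so that the groups overlapped.

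Within groups the members varied together in part. After the group means were taken out, the first component held 28.3% of the variance of the 46 members over the 16 aged mice and 28.0% over the 16 young mice, and the median correlation between 2 members was 0.228 and 0.0868. The members whose within-group deviations were most like those of Ncam2 in aged mice were Pcdh7 (r = 0.83), Cdh2 (0.71) and Pcdh17 (0.68), and in young mice Flrt3 (0.74), Cdh2 (0.70) and Cadm1 (0.67). Those most like Nrxn2 in aged mice were Nlgn2 (0.82), Lrfn1 (0.80) and Lrfn2 (0.73), and in young mice Lrfn4 (0.94), Lrfn3 (0.83) and Lrfn1 (0.82). In young mice the value of Lrfn1 is that of a locus joined with Samd4b. The mice share library and depth effects, so these values are a description. The members named beside Nrxn2 all had a GC content of 57.1% or more.

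Other genes of the same biology were taken from lists of known function. Of 26 genes for partners across the cleft (latrophilins, teneurins, receptor phosphatases, cerebellins and others), 1 rose with JQ1 in APP mice and none fell, where 0.619% and 0.466% of all genes did: Tenm1, a teneurin that binds latrophilins, was 16.8 ± 5.43 CPM after vehicle and 30.9 ± 7.88 CPM after JQ1 (log2 difference 0.88 ± 0.20, edgeR adjusted p = 0.0447). Of 43 other neuronal adhesion genes, Cntnap5b rose from 4.25 ± 2.27 to 11.3 ± 3.33 CPM (1.42 ± 0.32, adjusted p = 0.0417) and Lingo1, which has a GC content of 58.0%, fell from 218 ± 41.0 to 156 ± 17.7 CPM (-0.48 ± 0.11, adjusted p = 0.0389). Without the library that goes against its label, the edgeR adjusted p of Tenm1, Cntnap5b and Lingo1 was 0.110, 0.0965 and 0.0659. With the GC content offset none of these 3 passed: the log2 difference was 0.69 for Tenm1, 1.32 for Cntnap5b and -0.27 for Lingo1 (edgeR adjusted p = 0.248, 0.171 and 0.576). Of 22 intracellular partners, such as the PDZ scaffolds that anchor these proteins, none passed in any comparison by edgeR or limma. In vehicle-treated APP against WT mice none of these 91 genes passed, where 2.57% of all genes did, and in JQ1-treated APP against WT mice, where 2.06% did, 1 passed, Lingo2 (0.52 ± 0.12, edgeR adjusted p = 0.0340, and 0.0402 without that library). With the GC content offset Lingo2 had 0.39 (edgeR adjusted p = 0.128). In young mice none of those tested passed.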

How the data were processed

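CA1 tissue was profiled by RNA-seq in 16 aged and 16 young mice. For aged mice the authors placed reads on mm10 with STAR and deposited raw htseq counts per gene, whole numbers without normalization. The deposited FPKM came from cufflinks/cuffdiff, per the authors' methods, and are scaled to transcript length and library depth. Gene coordinates, GC content (of the longest coding transcript) and lengths came from GENCODE release M21. Whether counting used strand, and a sequencing batch or date, are not given in the sources used here. The labels do not say that samples of a group came from separate litters or batches, so p-values measure the spread between these samples.

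Counts were normalized with TMM, filtered with filterByExpr and fitted in 1 model of the 3 aged groups with edgeR 4.0.16 (quasi-likelihood, robust), and log2(FPKM + 0.1) was fitted, for loci that reached an FPKM of 0.5 in 8 or more samples, with limma 3.58.1 (trend, robust), in R 4.3.3. p-values were adjusted by the Benjamini-Hochberg method over all genes or loci tested, with a threshold of 0.05. Fold changes of FPKM are on the log2(FPKM + 0.1) scale and understate the change of low genes. Single members were compared by exact permutation of mean log2 values as well (two-sided). The GC content offset was a spline with 5 degrees of freedom fitted in each library. Alternatives were DESeq2 1.42.0, RLE size factors, other filters and pseudocounts, a fit of the 2 groups compared, offsets for GC content and length, the share of reads outside exons as a covariate, the replicate number as a block, and leaving out each library. DESeq2 and the GC content offset without the library labelled JQ1-treated APP replicate 4, and a fit without WT replicates 1 and 4, were chosen after seeing the data. The fits were tested on simulated data.

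1 further item of the APP line is not reported here. The members, families and lists were chosen with earlier results of these data known. Values by mouse are given for members that passed the threshold in any comparison or whose groups did not overlap in the comparisons of aged mice, and of each family the member with the highest level and the one with the largest change after JQ1 in APP mice were considered for naming. For Cdh8 and Slitrk5, which have 2 loci of the name in the FPKM files, the locus with the higher mean was used.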

Additional observations from a re-analysis of the deposited data

Results flagged for a closer look

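Of 60 sets of values (12 members in 5 groups), 3 held a library far from the others of its group, where chance gives about 1 in 20. Slitrk3 was 96.4 CPM in 1 vehicle-treated APP mouse, above the other 5, and Slitrk5 was 78.5 CPM in 1 vehicle-treated APP mouse, below the other 5. Ncam2 was 20.9 FPKM in 1 vehicle-treated young WT mouse, above the other 7. No member moved one way in all JQ1-treated APP mice and the other way in all JQ1-treated young mice, relative to the mean of their vehicle groups, among the 46 checked.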

How the results depend on the processing

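For JQ1 against vehicle in APP mice, 4 members passed, and leaving out 1 library at a time gave 0 to 6. DESeq2 gave 7 (3 higher), where 5.33% of the genes it tested passed, the fit of only the 2 groups compared gave 2 (0.937% of all genes), and the replicate block gave 1 (Lrfn4), where 0.513% of all genes passed. The GC content offset, the GC content and length offset, the replicate block with that offset and the GC content offset without the library labelled JQ1-treated APP replicate 4 each gave 0, where 0.153, 0.224, 0.189 and 0.0767% of all genes passed. The fall to 0 under these offsets was not traced to a cause. RLE size factors gave 4 (1.14% of all genes tested). No filter on low counts gave 3 (0.486%), and a filter of at least 10 counts in every sample gave 4 (1.53%).

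For vehicle-treated APP against WT mice, 1 member passed, and 0 or 1 without a library. DESeq2 and the GC content offset gave 2 each (4.22 and 2.13% of all genes tested), DESeq2 without the library labelled JQ1-treated APP replicate 4 gave 4 (4.80%), the GC content offset without it gave 3 (3.25%), and the replicate block, with and without the GC content and length offset, and the fit without WT replicates 1 and 4 gave 0 (0.206, 0.165 and 0% of all genes). For JQ1-treated APP against WT mice, 0 passed, and 0 or 1 without a library. DESeq2 gave 2 (4.21%) and, without the library that goes against its label, 1 (5.46%). The GC content offset without that library gave 2 (4.68%), and the GC content and length offset and the fit of the 2 groups compared gave 1 each (2.89 and 1.39%). In young mice 0 passed in every alternative run. The directions of the members that passed in the comparisons as reported (Ncam2, Nrxn2, Lrfn4, Amigo3 and Slitrk3) were kept in every alternative run. Nlgn2, which passed for JQ1 in APP mice with the share of reads outside exons as a covariate, had 0.01 with the GC content offset, and Lrrtm2, which passed by DESeq2, had -0.02 with that offset and without the library labelled JQ1-treated APP replicate 4.

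The labels use the same replicate numbers in each group. Deviations from the group means correlated at over 0.1 in 3 of 6 same-numbered pairs of JQ1- and vehicle-treated APP mice. The mean r was 0.109 for same-numbered and -0.0188 for differently numbered pairs. These values do not settle whether the numbers mark a pairing, and the main fits did not use the block. 3 of these 6 JQ1-treated libraries correlated best with their own number. The block also gave 0 members in young mice. The WT group of 4 and the unknown depth of the FPKM libraries limit the precision.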
